A study of Mus musculus with 6 samples.

Results

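The 33 genes described here encode the enzymes that make cholesterol and fatty acids, together with the regulators of that synthesis and the proteins that move sterols out of the cell. They were chosen by symbol along the order of the pathway, from the mevalonate steps to the desaturases, and all 33 were found among the 24080 genes of the table. A gene was tested where its normalized count reached 10 in at least 3 libraries, which left 14032 genes, and 32 of the 33 passed. The exception was *Nr1h3*.

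RNA of mouse endothelial cells was sequenced in 6 libraries. The 3 libraries labelled VEC-positive came from cells in which wild-type VEC, the vascular endothelial cadherin encoded by *Cdh5*, had been put back by a retrovirus. The 3 libraries labelled VEC-null came from the parent line, endothelial cells derived from mouse embryonic stem cells with both copies of the VEC gene inactivated, and the cells given VEC carry the same inactivated gene. Each group is a single cell line, so VEC itself and any other difference between the 2 lines cannot be told apart, and p-values measure the spread between libraries of a line, which the study calls biological replicates and the labels do not tie to separate cultures. Values are normalized counts (reads per gene divided by 1 scaling factor for each library) and a log2 fold change, on the scale log2(value + 1), is positive where the libraries labelled VEC-positive were higher.

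*Cdh5* itself went against the labels. Its normalized counts were 794, 739 and 749.7 under the label VEC-positive, against 1334, 1439 and 1689 under the label VEC-null (log2 fold change -0.96, adjusted p = 0.000182, limma). Reads of the returned copy and of the inactivated gene cannot be told apart in a count per gene, and the groups are therefore named by their labels throughout. *Cldn5*, the tight junction gene that VEC is known from earlier work to raise, was singled out after its values were seen and went with the labels, at 429, 512 and 434 under the label VEC-positive, against 9.18, 5.51 and 4.43 under the label VEC-null. Were the labels exchanged, every direction given here would turn round. Reads assigned to genes of the table numbered 9598590 to 14136376 in labelled VEC-positive libraries and 6036155 to 11670273 in labelled VEC-null libraries. They were recovered from the normalized counts, so the full depth of sequencing is not known here. Mitochondrial genes took 17.97% to 24.2% of these reads in the libraries labelled VEC-positive and 9.62% to 14.9% in those labelled VEC-null. All 14 endothelial markers passed the filter. At a limma adjusted p under 0.05, 10 were higher and 1 lower, beside 20.9% higher and 16.4% lower of all tested genes. These markers include *Cldn5* and *Vwf*, which the study reports as raised by VEC. They summed to 74769.5 to 76942 in labelled VEC-positive and 51411 to 53916 in labelled VEC-null libraries. Of the mural and fibroblast markers 6 were tested, with 2 higher and 1 lower. Mural and fibroblast markers summed to 268 to 330.0 in labelled VEC-positive and 184 to 282 in labelled VEC-null libraries, and the epithelial, blood, pluripotent, and hepatocyte and adipocyte lists to at most 37.2 in any library. The part of these differences in the results below was not tested. Library 3 labelled VEC-null stood apart from the other 2 of its group, with a mean chi-square over genes of 50.5 and 48.6 in comparison with each, beside 6.57 between those 2 and 11.8 to 18.4 among the libraries labelled VEC-positive. Among the 3 libraries labelled VEC-null it held the highest value for 19 of the 33 genes and the lowest for 6.

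Cells build cholesterol from acetyl-CoA through mevalonate, isoprenoid units, squalene and lanosterol. When membrane sterol is low, SCAP carries the membrane-bound SREBP proteins from the endoplasmic reticulum to the Golgi, where they are cut to release transcription factors, and INSIG proteins hold SCAP back when sterol is high. SREBP2 mainly drives sterol synthesis genes, SREBP1 fatty acid synthesis genes, and the oxysterol receptors LXR alpha and LXR beta drive sterol efflux together with the *Srebf1* gene.

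Of the 32 tested genes, 9 were higher and 7 lower in labelled VEC-positive cells at a limma adjusted p under 0.05, and 16 did not pass. With 1 library left out these counts were 4 and 4 (library 1 labelled VEC-positive), 6 and 4 (library 2), or 7 and 4 (library 3). Without library 1, 2 or 3 labelled VEC-null they were 7 and 5, 7 and 5, or 13 and 6. The counts over all tested genes, 2927 higher and 2304 lower with every library, moved as well. They were 2111 and 1585 without library 1 labelled VEC-positive, and 3800 and 3359 without library 3 labelled VEC-null. In these bulk libraries a gene used by fewer cells and less of its RNA in each cell cannot be told apart. Over all tested genes 37.3% passed, 20.9% higher and 16.4% lower. The pathway did not move one way: the median log2 fold change of the 32 genes was 0.03, beside -0.01 for all tested genes. Only *Sqle*, *Srebf1* and *Scd1* passed with at least a 2-fold change, as did 13.9% of all tested genes. The groups did not overlap for 19 of the 32 genes, which was the case for 50% of all tested genes. The plot of fold changes by step shows called genes on both sides of 0 among the sterol enzymes, the SREBP regulators and the fatty acid enzymes. It shows 3 higher calls in sterol transport and efflux and 1 lower call in the mevalonate steps.

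**Figure D1:**
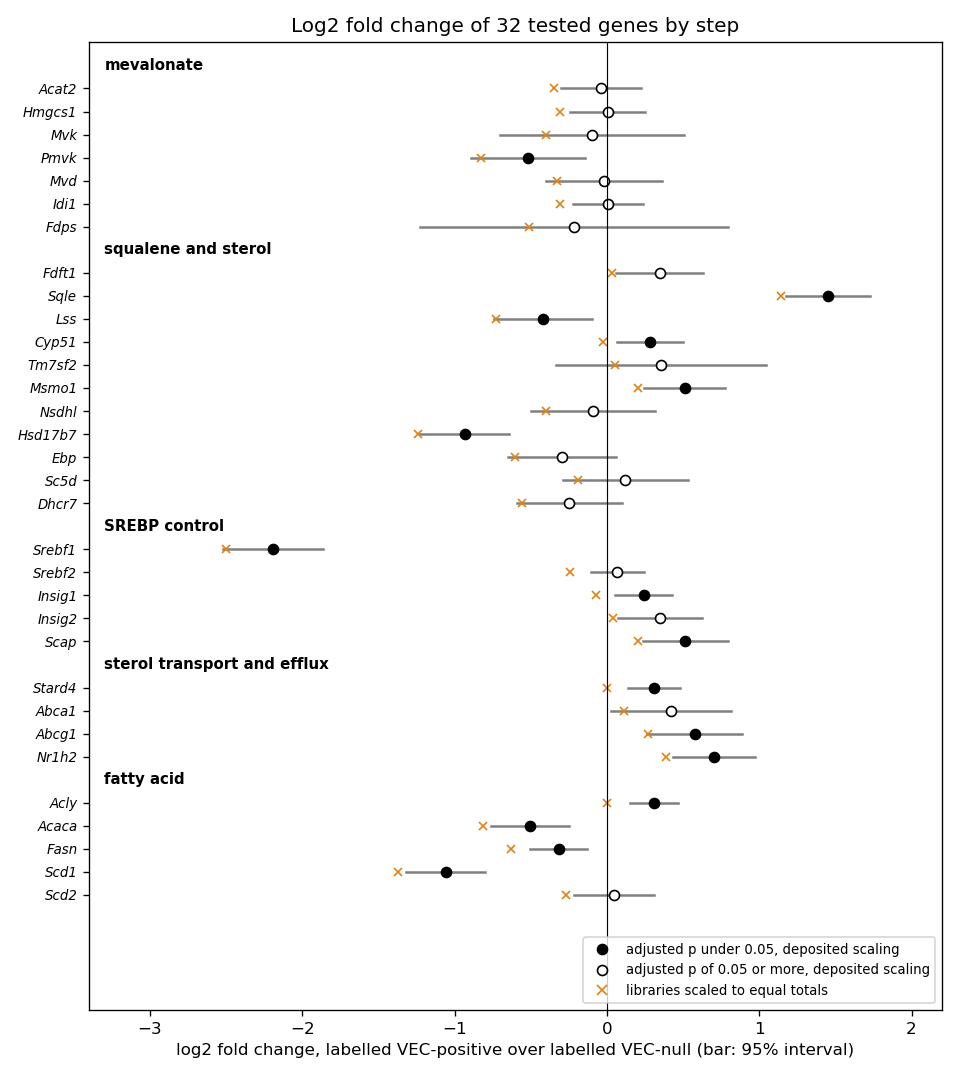
Each row is a tested gene, grouped by step, with its log2 fold change on the horizontal axis (positive, higher in the libraries labelled VEC-positive). Circles are the fold change with the deposited scaling, with a bar for the 95% interval (filled, adjusted p under 0.05), and crosses the value with libraries scaled to equal totals. *Srebf1* lies farthest to the left at -2.19 and *Sqle* farthest to the right at 1.45.

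How many genes moved each way depended on the scaling between libraries. With libraries scaled to equal totals the median of all tested genes was -0.32 in place of -0.01, 11.2% of all genes were called higher and 35.3% lower, and the 32 genes split into 2 higher and 13 lower with a median of -0.29. Of the 16 calls, 9 held under that scaling, those of *Pmvk*, *Sqle*, *Lss*, *Hsd17b7*, *Srebf1*, *Nr1h2*, *Acaca*, *Fasn* and *Scd1*. The calls of *Sqle*, *Hsd17b7*, *Srebf1*, *Nr1h2*, *Acaca* and *Scd1* held in the same direction in every alternative that was run, and their values are plotted by library. No alternative changed how reads with several matches were counted, and 64.3% of the *Acaca* transcript has a near copy in Gm5182.

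**Figure D2:**
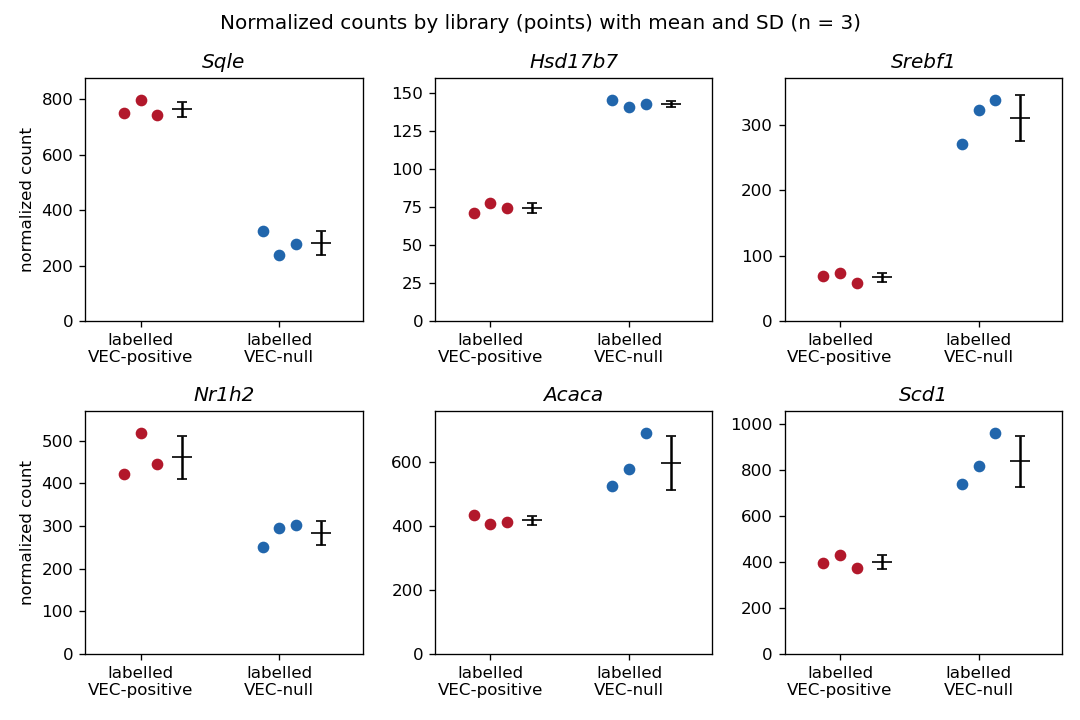
Normalized counts (vertical axis, from 0) of the 6 genes called the same way in every alternative, with 3 libraries labelled VEC-positive on the left and 3 labelled VEC-null on the right of each panel. Points are libraries, and the black line and bar are the mean and SD (n = 3). The groups do not overlap in any panel: *Sqle* and *Nr1h2* are higher and *Hsd17b7*, *Srebf1*, *Acaca* and *Scd1* lower in the libraries labelled VEC-positive.

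The mevalonate steps turn acetyl-CoA into farnesyl diphosphate, and of the 7 genes measured here only *Pmvk* passed the test. By comparison, 37.3% of all tested genes passed. *Pmvk* encodes phosphomevalonate kinase, which adds the second phosphate to mevalonate. Its normalized counts were 142, 128 and 142 in labelled VEC-positive cells, against 159, 200.03 and 239 in labelled VEC-null cells (log2 fold change -0.52 ± 0.16 (SE), adjusted p = 0.0371). The groups did not overlap. With 4 of the libraries left out in turn (each labelled VEC-positive one and library 2 labelled VEC-null), *Pmvk* no longer passed, at adjusted p of 0.0839 to 0.125.

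*Hmgcs1*, the synthase that forms HMG-CoA, was among the higher genes per length and overlapped between the groups, with 1008, 1166 and 1025 normalized counts in the libraries labelled VEC-positive and 1190.4, 936 and 1067 in those labelled VEC-null (log2 fold change 0.0058, 95% interval -0.24 to 0.25, adjusted p = 0.972). *Idi1*, the isomerase of the isoprenoid units, had 497, 590.3 and 510.0 in labelled VEC-positive cells, against 549, 485 and 555 in labelled VEC-null cells (log2 fold change 0.0055, 95% interval -0.23 to 0.24, adjusted p = 0.972). With equal totals both were called lower, *Hmgcs1* at -0.31 and *Idi1* at -0.31, about the shift of the median gene. Of the *Hmgcs1* exon bases, 557 of 4594 overlap an antisense gene, Gm48342, and 22.6% of the *Idi1* transcript has a near copy in other genes.

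*Acat2*, the cytosolic thiolase that joins acetyl-CoA units, had 171, 178 and 153 in labelled VEC-positive cells, against 173, 165 and 178 in labelled VEC-null cells (log2 fold change -0.038, 95% interval -0.30 to 0.22, adjusted p = 0.818), and was called lower with equal totals (-0.35); 65.6% of its transcript has a near copy in *Acat3* or *Tcp1*. The other 3 mevalonate genes overlapped between the groups and were low. *Mvk*, mevalonate kinase, averaged 39.8 ± 6.77 in labelled VEC-positive cells, against 43.3 ± 11.0 in labelled VEC-null cells (SD, n = 3 each; log2 fold change -0.098, adjusted p = 0.795). *Mvd*, the decarboxylase that follows the kinases, averaged 73.0 ± 5.39 in labelled VEC-positive cells, against 74.2 ± 8.68 in labelled VEC-null cells (log2 fold change -0.019, adjusted p = 0.939). *Fdps*, farnesyl diphosphate synthase, stood at 15.2, 16.6 and 16.1 in labelled VEC-positive cells, against 26.0, 27.6 and 8.87 in labelled VEC-null cells, from 10 to 35 reads in a library (log2 fold change -0.22, 95% interval -1.23 to 0.80, adjusted p = 0.73). Its level cannot be read as that of the gene, since 76.8% of its transcript has a copy of at least 95% identity in 5 genes elsewhere and the sources used here do not say how reads with several matches were counted. In addition, 1124 of its 4208 exon bases overlap Gm43738, a protein-coding gene on the same strand with no row in the table.

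Between farnesyl diphosphate and cholesterol, 3 of 11 genes were higher, 2 lower and 6 not called. Over all tested genes 20.9% were higher and 16.4% lower. *Sqle*, squalene epoxidase, which oxidises squalene and is a rate-limiting enzyme of the pathway, rose most of the 32 tested genes. At chr15:59315077-59331192, plus strand (mm10), its normalized counts were 750.0, 795 and 744 in labelled VEC-positive cells, against 324, 238 and 279 in labelled VEC-null cells, a 2.73-fold difference (log2 fold change 1.45 ± 0.12 (SE), adjusted p = 6.24e-05). The lowest library labelled VEC-positive held more than 2 times the value of the highest labelled VEC-null. Leaving out single libraries moved the log2 fold change between 1.34 and 1.56, and equal totals gave 1.141.

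Of the enzymes on either side of *Sqle*, *Fdft1* was not called and *Lss* was lower. *Fdft1*, squalene synthase, which makes the substrate, had 920.3, 960.5 and 896 in labelled VEC-positive cells, against 747, 604 and 855 in labelled VEC-null cells. The groups did not overlap but the gene did not pass (log2 fold change 0.35, 95% interval 0.059 to 0.63, adjusted p = 0.0607). Without library 3 labelled VEC-null it passed (0.46, adjusted p = 0.00364), and with equal totals its log2 fold change was 0.035. Of its exon bases, 774 of 4227 overlap *Ctsb* on the other strand, counting by strand is not stated, and 33.7% of its transcript has a near copy in Gm6781. *Lss*, lanosterol synthase, which closes the product of *Sqle* into the first sterol, was lower, at 91.0, 80.9 and 75.9 in labelled VEC-positive cells, against 112, 108 and 112 in labelled VEC-null cells (log2 fold change -0.42, adjusted p = 0.0465). That call was lost with each of the 6 libraries left out in turn, at adjusted p of 0.0523 to 0.149, and by DESeq2.

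Among the enzymes that trim lanosterol, *Msmo1* was higher and *Hsd17b7* lower, and both act in removal of the same methyl groups. *Msmo1*, the sterol methyl oxidase, had 679, 670.2 and 631 normalized counts in the libraries labelled VEC-positive and 433, 416 and 549 in those labelled VEC-null (log2 fold change 0.51 ± 0.12 (SE), adjusted p = 0.00965). The groups did not overlap, and with equal totals the difference was 0.20 and not called. *Hsd17b7* (chr1:169949535-169969241, minus strand), the reductase that ends each round of demethylation, had 71.1, 77.9 and 74.2 in labelled VEC-positive cells, against 145, 141 and 143 in labelled VEC-null cells, a 1.91-fold lower level (log2 fold change -0.93 ± 0.13 (SE), adjusted p = 0.000796). The 3 libraries of each label lay within 7 normalized counts of each other, and equal totals gave -1.24. *Nsdhl*, the dehydrogenase between them, averaged 115 ± 10.4 in labelled VEC-positive and 124 ± 24.4 in labelled VEC-null cells and overlapped (SD, n = 3 each; log2 fold change -0.091, 95% interval -0.50 to 0.31, adjusted p = 0.714).

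*Cyp51*, the lanosterol demethylase, was called higher by a narrow margin. Its normalized counts were 671, 632 and 644 in labelled VEC-positive cells, against 519, 488 and 598 in labelled VEC-null cells (log2 fold change 0.28, adjusted p = 0.0476), with -0.028 under equal totals. The adjusted p lay above 0.05 with edgeR, DESeq2 and 5 of the 6 libraries left out in turn, the exception being library 3 labelled VEC-null, and 166 of its 4415 exon bases overlap *Akap9* on the other strand. *Tm7sf2*, a sterol reductase, was low, at 29.2, 31.2 and 23.4 in labelled VEC-positive cells, against 30.6, 18.1 and 17.7 in labelled VEC-null cells (log2 fold change 0.36, 95% interval -0.33 to 1.04, adjusted p = 0.386), and shares 532 exon bases with *Vps51*.

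The last enzymes were not called with the deposited scaling. *Ebp*, the sterol isomerase, had 126, 143 and 128 normalized counts in labelled VEC-positive cells and 144, 150.4 and 199 in labelled VEC-null cells, without overlap (log2 fold change -0.30, 95% interval -0.65 to 0.059, adjusted p = 0.171). *Dhcr7*, the reductase that makes cholesterol from its dehydro precursor, had 105, 110.1 and 132 in labelled VEC-positive cells, against 151, 139 and 121 in labelled VEC-null cells (log2 fold change -0.25, 95% interval -0.59 to 0.10, adjusted p = 0.236). Both were called lower with equal totals, *Ebp* at -0.60 and *Dhcr7* at -0.55. *Sc5d*, the sterol desaturase, had 173, 226 and 195 in labelled VEC-positive cells, against 161, 158 and 232 in labelled VEC-null cells (log2 fold change 0.12, 95% interval -0.29 to 0.53, adjusted p = 0.625), and -0.19 with equal totals.

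Promoters of *Hsd17b7*, *Msmo1* and *Hmgcs1* are shown because a lower, a higher and an uncalled sterol gene carry the same letters there. RefSeq windows of 300 bases (250 before to 50 after each start site, GRCm38.p6) were found for 26 of the 33 genes, not for *Fdft1*, *Fdps*, *Sqle*, *Stard4*, *Abcg1*, *Scd1* and *Scd2*. They are printed 5′ to 3′ along the gene, and capitals mark TCACNNCAC, a spelling near that of a sterol regulatory element, and CCAAT, the box bound by NF-Y, each on either strand. In *Msmo1* the 2 motifs overlap by 1 base.
*Hsd17b7*, chr1:169969156-169969455, minus strand: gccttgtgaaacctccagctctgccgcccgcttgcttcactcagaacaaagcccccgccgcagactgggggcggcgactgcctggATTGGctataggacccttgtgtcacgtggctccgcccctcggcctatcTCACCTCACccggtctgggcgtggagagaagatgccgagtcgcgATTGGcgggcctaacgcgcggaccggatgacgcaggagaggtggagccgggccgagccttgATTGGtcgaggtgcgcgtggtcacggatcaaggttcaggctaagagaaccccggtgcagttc
*Msmo1*, chr8:64733529-64733828, minus strand: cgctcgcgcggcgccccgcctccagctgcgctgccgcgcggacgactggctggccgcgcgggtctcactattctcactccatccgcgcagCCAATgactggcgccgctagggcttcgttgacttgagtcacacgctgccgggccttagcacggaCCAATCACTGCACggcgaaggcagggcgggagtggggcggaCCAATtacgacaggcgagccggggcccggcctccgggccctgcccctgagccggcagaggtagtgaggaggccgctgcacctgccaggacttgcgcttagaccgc
*Hmgcs1*, chr13:119690101-119690400, plus strand: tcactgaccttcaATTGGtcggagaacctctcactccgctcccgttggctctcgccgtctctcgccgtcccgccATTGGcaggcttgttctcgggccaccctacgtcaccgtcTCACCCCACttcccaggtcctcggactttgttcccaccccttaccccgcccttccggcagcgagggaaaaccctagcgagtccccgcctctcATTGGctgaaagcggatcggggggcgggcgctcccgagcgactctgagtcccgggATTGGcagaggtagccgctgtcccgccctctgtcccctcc

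TCACNNCAC, added after the first motifs had been counted, was found in 4 of the 26 genes, *Dhcr7*, *Hmgcs1*, *Hsd17b7* and *Msmo1*, and in 4.37% of 27025 genes with a promoter in the table. Its narrower form TCACNCCAC, which it contains, was found in *Hmgcs1* alone and in 1.44% of all genes. CCAAT was found in 20 of the 26 genes and in 41.1% of all genes. By call, CCAAT was in 4 of 6 higher, 5 of 6 lower and 11 of 13 uncalled genes. GGGCGG, the core bound by Sp1, was in 21 of the 26 and in 38.2% of all genes, in 5 of 6 higher, 3 of 6 lower and all 13 uncalled genes. Both motifs were thus found in genes of every call.

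Among the regulators of the SREBP pathway, *Srebf1* fell most of the 32 tested genes while *Srebf2* did not pass the test. *Srebf1* (chr11:60199089-60222581, minus strand) encodes SREBP1, the transcription factor of fatty acid synthesis genes. Its normalized counts were 68.8, 73.1 and 58.9 in labelled VEC-positive cells, against 271, 322 and 337 in labelled VEC-null cells, a 4.58-fold lower level (log2 fold change -2.19 ± 0.14 (SE), adjusted p = 1.91e-05). The lowest library labelled VEC-null held more than 3 times the value of the highest labelled VEC-positive, and equal totals gave -2.50. *Srebf1* shares 109 of its 5634 exon bases with *Rai1* on the other strand. *Srebf2*, which encodes SREBP2, had 746, 689.7 and 694 in labelled VEC-positive cells, against 653, 672 and 706 in labelled VEC-null cells (log2 fold change 0.069, 95% interval -0.11 to 0.24, adjusted p = 0.511). Its groups overlapped, and with equal totals it was called lower (-0.24, adjusted p = 0.0408).

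A pair of genes that encode the proteins around SREBP rose slightly. *Scap*, the escort of the SREBPs, had 179.6, 170.5 and 175 normalized counts in the libraries labelled VEC-positive and 112, 121 and 135 in those labelled VEC-null, without overlap (log2 fold change 0.51 ± 0.12 (SE), adjusted p = 0.012). With equal totals its difference was 0.21 and not called, without library 1 labelled VEC-positive its adjusted p was 0.0539, and 985 of its 7443 exon bases overlap 5830462I19Rik on the other strand. *Insig1*, whose protein retains SCAP and which is itself a target of SREBP, had 721, 740.3 and 672 in labelled VEC-positive cells, against 624, 565 and 614 in labelled VEC-null cells (log2 fold change 0.24, adjusted p = 0.0471), with -0.069 under equal totals. The call of *Insig1* was lost with edgeR, DESeq2 and every library left out in turn but library 3 labelled VEC-null. *Insig2*, its relative, had 157, 178 and 191 in labelled VEC-positive cells, against 141, 134 and 137 in labelled VEC-null cells, without overlap, just short of the threshold (log2 fold change 0.35, 95% interval 0.070 to 0.63, adjusted p = 0.0533), and passed without library 3 labelled VEC-null (adjusted p = 0.0469).

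RefSeq gives 3 start sites for *Srebf1*, and counts per gene do not separate them. The promoter of the start farthest inside the gene is shown because it holds a repeated motif. Capitals mark GGGTTACT, a spelling chosen after this window had been read that resembles part of known LXR elements, and CCAAT, each on either strand. The window holds 2 matches of GGGTTACT, and since the spelling was taken from this window, its presence and frequency here support nothing.
*Srebf1*, chr11:60210422-60210721, minus strand: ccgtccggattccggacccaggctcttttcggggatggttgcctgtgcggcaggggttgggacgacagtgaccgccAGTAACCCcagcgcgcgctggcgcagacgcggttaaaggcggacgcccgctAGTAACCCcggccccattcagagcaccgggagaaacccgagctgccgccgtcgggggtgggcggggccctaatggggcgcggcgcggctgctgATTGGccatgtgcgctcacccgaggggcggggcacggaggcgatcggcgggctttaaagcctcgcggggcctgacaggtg

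Besides *Srebf1*, GGGTTACT was found in *Abca1* and *Fasn*, and in 0.633% of all genes with a promoter in the table. *Abca1* did not pass the test, and *Fasn* and *Srebf1* were lower. None of the 6 higher genes with a promoter in the table holds it, which is the likely outcome for so rare a motif. With a spelling taken from the *Srebf1* window, these calls show no link between the motif and a direction.

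Of 4 tested genes of sterol transport and efflux, 3 were higher and none lower, beside 20.9% and 16.4% of all tested genes. The other gene was not called, and with so few genes the lack of a lower call is no trait of the step. *Nr1h2* (chr7:44549616-44553951, minus strand) encodes LXR beta, an oxysterol receptor of most tissues. Its normalized counts were 421, 517 and 445 in labelled VEC-positive cells, against 251, 296 and 302 in labelled VEC-null cells, 1.63-fold higher and without overlap (log2 fold change 0.70 ± 0.12 (SE), adjusted p = 0.00225), and it was the only gene of this step still called with equal totals (0.39). *Nr1h3*, which encodes LXR alpha, was not tested, with 1.17, 1.95 and 3.23 in labelled VEC-positive cells, against 1.53, 5.51 and 0.887 in labelled VEC-null cells, from 1 to 7 reads in a library.

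*Abcg1*, a transporter that exports cholesterol to high-density lipoprotein and a known LXR target, had 629, 622 and 566 normalized counts in the libraries labelled VEC-positive and 355, 374 and 501 in those labelled VEC-null, without overlap (log2 fold change 0.58 ± 0.14 (SE), adjusted p = 0.0116). With equal totals it was at 0.27 and not called, and without library 1 labelled VEC-positive its adjusted p was 0.0516. *Abca1*, which loads cholesterol onto apolipoprotein A-I and is also an LXR target, had 808, 738 and 919.9 in labelled VEC-positive cells, against 500.3, 571 and 799 in labelled VEC-null cells (log2 fold change 0.42, 95% interval 0.029 to 0.81, adjusted p = 0.0882). Library 3 labelled VEC-null overlapped the other group, and without it *Abca1* passed (0.61, adjusted p = 0.00133). *Stard4*, a soluble carrier of cholesterol between membranes, had 1135, 1138 and 1148 in labelled VEC-positive cells, against 982, 913 and 869 in labelled VEC-null cells (log2 fold change 0.31, adjusted p = 0.0125), and -0.0018 with equal totals. Without libraries 1 or 2 labelled VEC-positive its adjusted p was 0.0506 and 0.0502.

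In fatty acid synthesis, 1 of 5 genes was higher, 3 lower and 1 not called. Over all tested genes 20.9% were higher and 16.4% lower. *Acly*, which makes cytosolic acetyl-CoA from citrate, was higher with the deposited scaling. *Acly* had 1944, 1985 and 1973 normalized counts in labelled VEC-positive cells, against 1574, 1525 and 1669 in labelled VEC-null cells (log2 fold change 0.31, adjusted p = 0.00856), a difference of -0.0027 with equal totals. *Acaca* (chr11:84129672-84401651, plus strand), acetyl-CoA carboxylase, the committed step, had 433, 407 and 412 in labelled VEC-positive cells, against 523, 576 and 688 in labelled VEC-null cells, a 1.42-fold lower level without overlap (log2 fold change -0.50 ± 0.11 (SE), adjusted p = 0.00861). Of its transcript, 64.3% has a near copy in Gm5182, a gene with no row in the table. *Fasn*, fatty acid synthase, had 534, 527 and 541 in labelled VEC-positive cells, against 702, 613 and 685 in labelled VEC-null cells (log2 fold change -0.32, adjusted p = 0.0175). The groups did not overlap, equal totals gave -0.63, and the call was lost when any 1 library labelled VEC-positive, or library 1 labelled VEC-null, was left out, at adjusted p of 0.0533 to 0.0686.

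Of the 2 stearoyl-CoA desaturases, which put a double bond into saturated acyl chains, *Scd1* was lower and *Scd2* was not called. *Scd1* (chr19:44394455-44407879, minus strand) had 395, 432 and 374 normalized counts in the libraries labelled VEC-positive, against 739, 817 and 959 in those labelled VEC-null, 2.08-fold lower (log2 fold change -1.06 ± 0.11 (SE), adjusted p = 0.000224), and equal totals gave -1.37. *Scd2*, the gene with the highest counts among the 33, had 3438, 3418 and 3473 in labelled VEC-positive cells, against 3023, 3063 and 4011 in labelled VEC-null cells (log2 fold change 0.045, 95% interval -0.22 to 0.31, adjusted p = 0.78). Library 3 labelled VEC-null was the highest of the 6 for *Scd2*, and without it the gene was called higher by 0.18. Of the *Scd2* transcript, 11.4% has a near copy in *Scd1*.

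The *Fasn* promoter is shown for its GGGTTACT match and its CCAAT matches, a pair of which share letters on opposite strands, in capitals as above.
*Fasn*, chr11:120824498-120824797, minus strand: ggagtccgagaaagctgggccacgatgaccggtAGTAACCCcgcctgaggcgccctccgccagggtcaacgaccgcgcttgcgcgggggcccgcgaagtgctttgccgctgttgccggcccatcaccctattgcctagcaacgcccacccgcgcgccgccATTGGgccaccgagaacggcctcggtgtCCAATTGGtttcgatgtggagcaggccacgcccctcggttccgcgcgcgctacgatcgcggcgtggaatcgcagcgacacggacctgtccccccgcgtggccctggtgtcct

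Levels between genes were compared as normalized counts per kb of exon, with every annotated exon base of a gene counted once (GENCODE vM21). That length can exceed the longest coding transcript, as for *Lss* (10787 against 4667 bases) and *Sqle* (5546 against 2758). The order of genes and the size of a ratio of 2 genes depend on the length used, while comparisons of the groups do not. *Scd2* was the most abundant, with 630.2 ± 5.09 per kb in labelled VEC-positive and 616 ± 102 in labelled VEC-null cells (SD, n = 3 each). *Acly* came next, at 373 ± 3.98 in labelled VEC-positive cells, against 301 ± 13.9 in labelled VEC-null cells. *Hmgcs1* had 232 ± 18.9 in labelled VEC-positive cells, against 232 ± 27.7 in labelled VEC-null cells. *Insig1* (229.9 ± 11.3) and *Fdft1* (219 ± 7.74) did not differ from it beyond their spread in labelled VEC-positive cells. At the low end, *Lss* had 7.65 ± 0.714 in labelled VEC-positive cells, against 10.2 ± 0.204 in labelled VEC-null cells. *Tm7sf2* had 6.34 ± 0.916 in labelled VEC-positive cells, against 5.03 ± 1.66 in labelled VEC-null cells. *Srebf1* ranged from 10.5 to 59.8 per kb over the 6 libraries, the widest relative range among the genes that passed the filter and were called. The plot of levels by step shows tested genes from 2.11 per kb for *Fdps* to 734 for *Scd2* in single libraries, with the untested *Nr1h3* below them, and small gaps between the groups for most genes.

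**Figure D3:**
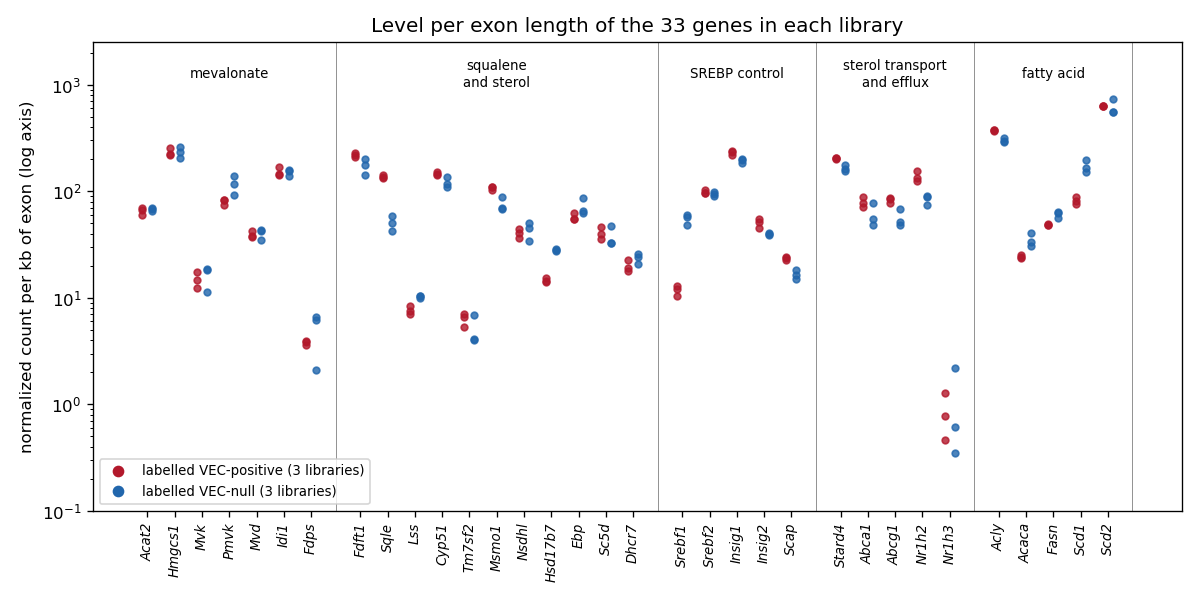
Normalized count per kb of exon (vertical log axis) for the 33 genes in pathway order, with 1 point for each library, labelled VEC-positive to the left of labelled VEC-null for each gene. *Scd2* is highest and *Nr1h3* lowest. The groups are widest apart for *Sqle*, *Srebf1*, *Scd1* and *Hsd17b7*.

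Ratios of 2 genes within a library do not depend on the scaling between libraries. They were computed for 8 pairs chosen after the values had been seen, so they are descriptions, and an exact two-sided permutation test of 3 against 3 cannot give a p below 0.1. *Srebf1* over *Srebf2* was 0.118, 0.135 and 0.108 per kb in the libraries labelled VEC-positive, against 0.529, 0.611 and 0.609 in those labelled VEC-null. *Scd1* over *Scd2* was 0.128, 0.141 and 0.120 in labelled VEC-positive cells, against 0.273, 0.298 and 0.267 in labelled VEC-null cells. Both ratios were lower in every library labelled VEC-positive than in any labelled VEC-null.

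*Sqle* over *Fdft1* was 0.621, 0.631 and 0.633 in labelled VEC-positive cells, against 0.331, 0.300 and 0.249 in labelled VEC-null cells, and *Sqle* over *Lss* averaged 18.1 ± 1.77 in labelled VEC-positive cells, against 4.93 ± 0.683 in labelled VEC-null cells (SD, n = 3 each). *Hsd17b7* over *Msmo1* averaged 0.136 ± 0.00849 in labelled VEC-positive cells, against 0.375 ± 0.0537 in labelled VEC-null cells. *Acly* over *Fasn* averaged 7.64 ± 0.147 in labelled VEC-positive cells, against 4.95 ± 0.270 in labelled VEC-null cells, and *Nr1h2* over *Srebf2* 1.40 ± 0.200 in labelled VEC-positive cells, against 0.895 ± 0.0639 in labelled VEC-null cells. For these 7 pairs the groups did not overlap (p = 0.1, the smallest the exact permutation test allows). *Insig1* over *Insig2* averaged 4.58 ± 0.601 in labelled VEC-positive cells, against 4.91 ± 0.150 in labelled VEC-null cells, with overlap (exact permutation p = 0.6).

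**Figure D4:**
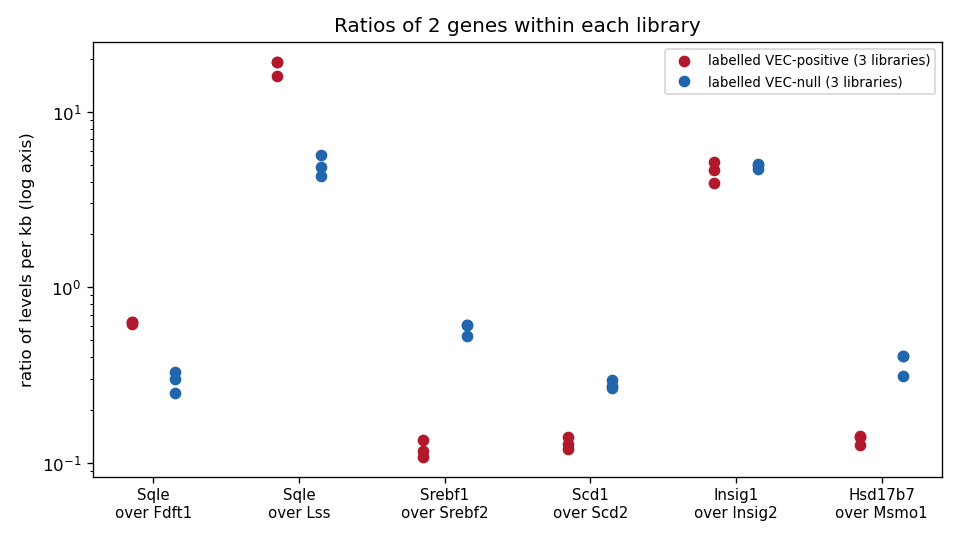
Ratio of the levels per kb of 2 genes in the same library (vertical log axis), with 1 point for each library, labelled VEC-positive to the left of labelled VEC-null. *Sqle* over *Fdft1* and over *Lss* is higher, and *Srebf1* over *Srebf2*, *Scd1* over *Scd2* and *Hsd17b7* over *Msmo1* lower, in all 3 libraries labelled VEC-positive, while *Insig1* over *Insig2* overlaps.

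Other lipid genes were counted from 4 lists, and not every gene drawn is reported by name. Of the other genes of sterol synthesis and SREBP control (33 listed, 31 tested), 8 were higher (25.8%, beside 20.9% of all tested genes), 5 lower (16.1%, beside 16.4%) and 18 not called, with 2 higher and 18 lower under equal totals. That scaling called 11.2% of all tested genes higher and 35.3% lower. *Por*, the reductase that feeds electrons to CYP51 and squalene epoxidase, had 1333, 1421 and 1434 normalized counts in labelled VEC-positive cells, against 581, 579 and 682 in labelled VEC-null cells (log2 fold change 1.19, adjusted p = 3.9e-05). *Rnf139*, a ubiquitin ligase of the endoplasmic reticulum, was higher by 0.78 and *Ube2g2*, a ubiquitin-conjugating enzyme of the same quality control, by 0.51 on the log2 scale (0.20 and not called with equal totals). *Nfya*, a subunit of the CCAAT-binding NF-Y, was lower, with 504, 451 and 426 in labelled VEC-positive cells, against 690.1, 705 and 722 in labelled VEC-null cells (log2 fold change -0.62, adjusted p = 0.00097). *Nus1*, a partner of the enzyme that makes dolichol, and *Lbr*, the lamin B receptor that is also a sterol reductase, changed by -0.56 and -0.53. *Vcp*, the most abundant uncalled gene of the list, was at -0.13.

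Of the genes of cholesterol uptake, transport, storage and oxysterols (38 listed, 30 tested), 11 were higher (36.7%, beside 20.9% of all tested genes), 4 lower (13.3%, beside 16.4%) and 15 not called, with 9 and 9 under equal totals, where 11.2% and 35.3% of all tested genes were called. The lower count was 1 without library 2 or 3 labelled VEC-positive or library 2 labelled VEC-null, 2 without library 1 labelled VEC-positive, and 6 without library 3 labelled VEC-null. Over all tested genes the lower count, 2304 with every library, was 1585 to 1793 in the first 4 of these fits and 3359 in the last. *Vldlr*, a receptor that takes up triglyceride-rich lipoproteins, had 941, 967 and 978 normalized counts in the libraries labelled VEC-positive, against 65.8, 81.1 and 147 in those labelled VEC-null (log2 fold change 3.37, adjusted p = 4.45e-05). *Lrp1*, a large endocytic receptor of lipoproteins and other ligands, had 162, 164 and 170.3 in labelled VEC-positive cells, against 16.8, 28.4 and 40.8 in labelled VEC-null cells (log2 fold change 2.57, adjusted p = 0.000323). *Lipa*, the lysosomal acid lipase that frees cholesterol from its esters, had 675, 662 and 696 in labelled VEC-positive cells, against 204, 272 and 379 in labelled VEC-null cells (log2 fold change 1.29, adjusted p = 0.00147). For all 3 genes library 3 was the highest of those labelled VEC-null and still below every library labelled VEC-positive. *Soat1*, which esterifies cholesterol for storage, was lower (log2 fold change -0.39, adjusted p = 0.0329), as were *Osbpl1a* (-0.82) and *Stard5* (-0.53), both lipid-binding proteins. The call of *Stard5* was lost with each library left out in turn (adjusted p of 0.0579 to 0.154), and that of *Soat1* without any 1 library labelled VEC-positive or without library 2 labelled VEC-null (0.0624 to 0.111). *Gramd1a*, a sterol carrier at membrane contacts, was not called (0.020, and -0.29 with equal totals).

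Among other genes of fatty acid synthesis, elongation, desaturation and activation (42 listed, 36 tested), 4 were higher (11.1%, beside 20.9% of all tested genes), 7 lower (19.4%, beside 16.4%) and 25 not called, with 3 and 16 under equal totals, where 11.2% and 35.3% of all tested genes were called. The lower count was 2 without library 2 labelled VEC-positive, 4 without library 3 labelled VEC-positive and 3 without library 2 labelled VEC-null, and the higher count was 6 without library 3 labelled VEC-null. Over all tested genes the lower count in those fits was 1636, 1679 and 1793, beside 2304 with every library, and the higher count 3800, beside 2927. *Lpin2*, a phosphatidate phosphatase, was higher and *Lpin1*, its relative, lower, at 0.82 and -0.79 on the log2 scale. The named elongases also went both ways, but genes were named for calls in each direction, so no split of a family is shown. *Elovl5*, which acts on polyunsaturated chains, had 1169.9, 1219.6 and 1231 normalized counts under the label VEC-positive, against 727, 726 and 895 under the label VEC-null (log2 fold change 0.63, adjusted p = 0.00149). *Elovl6*, which extends saturated chains and is a known SREBP1 target, had 206, 183 and 218 in labelled VEC-positive cells, against 285, 284 and 257 in labelled VEC-null cells (log2 fold change -0.44, adjusted p = 0.0144). *Pnpla2*, the triglyceride lipase, was higher by 0.55 and *Plin2*, the coat protein of lipid droplets, changed by -0.49, while *Acsl5*, an acyl-CoA synthetase, was not called (-0.078). The call of *Pnpla2* was lost with each library left out in turn but library 3 labelled VEC-null (adjusted p of 0.0773 to 0.12) and with equal totals (0.24). Without any 1 library labelled VEC-positive or library 2 labelled VEC-null, *Plin2* did not pass (0.06 to 0.127), and without library 2 of either label *Elovl6* did not (0.0511 and 0.0634).

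Fatty acid uptake and oxidation (34 listed, 26 tested) had 8 higher (30.8%, beside 20.9% of all tested genes), 9 lower (34.6%, beside 16.4%) and 9 uncalled genes, with 4 and 12 under equal totals, where 11.2% and 35.3% of all tested genes were called. Without library 1 labelled VEC-positive 5 were higher, and over all tested genes 2111 in place of 2927. *Fabp4*, a fatty acid-binding protein of capillary endothelium and adipocytes, had 4656, 4742 and 4543 normalized counts in labelled VEC-positive cells, against 614, 532 and 381 in labelled VEC-null cells (log2 fold change 3.22, adjusted p = 4.12e-06). *Fabp5*, its relative, had 8243, 8196 and 8365 in labelled VEC-positive cells, against 4041, 3715 and 3541 in labelled VEC-null cells (log2 fold change 1.137, adjusted p = 2.3e-05). *Cd36*, the fatty acid translocase, went the other way, with 33.8, 41.9 and 42.0 in labelled VEC-positive cells, against 375, 352 and 446 in labelled VEC-null cells (log2 fold change -3.28, adjusted p = 3.3e-06). *Gpihbp1*, which anchors lipoprotein lipase to capillary endothelium, was lower (log2 fold change -1.60, adjusted p = 0.00272). Of the nuclear receptors that sense fatty acids, *Ppard* was higher (log2 fold change 1.01, adjusted p = 0.000142) and *Pparg* lower (log2 fold change -1.57, adjusted p = 0.00138). *Pparg* was low, from 23 to 97 reads in a library. Here too genes were named for calls in each direction, so opposite pairs show no split of a family. *Hadh*, an enzyme of beta-oxidation, was not called (0.059, and -0.25 with equal totals).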

How the data were processed

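Total RNA was sequenced in 3 libraries labelled VEC-positive and 3 labelled VEC-null. The submitters' processing notes name Trim Galore, TopHat2 2.1.1, DESeq2 1.14 and mm10. No source used here names the counting program, its strand setting or the annotation. The deposited signal is a normalized count, which the authors made by dividing reads per gene by 1 factor for each library, and whole reads could be recovered for 100% of values within 0.01 of a whole number. Gene names came from GENCODE vM21, matching 23908 of 24080 IDs.

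log2(value + 1) was fitted with limma 3.58.1 (mean-variance trend, R 4.3.3), two-sided, without covariates, over genes reaching 10 normalized counts in 3 or more libraries, with p-values adjusted over all tested genes by Benjamini-Hochberg (threshold 0.05). The alternatives were edgeR 4.0.16 and DESeq2 1.42.0 on the recovered reads, other scalings, filters, pseudocounts, a replicate block and leaving out each library. Members and lists were chosen with earlier results of these data known, so list counts are descriptions. Named genes were all members, *Cdh5*, and for each list up to 3 called each way with the largest fold change and a mean of at least 50, plus the most abundant uncalled gene. Near copies were stretches of at least 100 bases at 95% identity in genes that do not overlap the member's own locus. Sequences are from RefSeq.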

Additional observations from a re-analysis of the deposited data

How the results depend on the processing

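The limits of these data are 3 libraries a line, 1 line a group, a scaling that sets the direction of small changes, and counts too low to place *Fdps*, *Tm7sf2*, *Mvk* and *Nr1h3*. Pseudocounts of 0.5 and 5 changed no call of the 32 genes. Libraries scaled to equal totals gave 1566 higher and 4960 lower genes over all, 2 higher and 13 lower of the 32 with a median of -0.29, and 18 higher and 55 lower over the 4 lists. With mitochondrial genes left out of those totals, 4 of the 32 were higher and 7 lower, and the median of the 32 was -0.12. Over all genes that scaling gave 2051 higher and 3166 lower. edgeR gave 2817 higher and 2506 lower genes over all and kept 14 of the 16 calls, and DESeq2 gave 2568 and 2301 and kept 13. Leaving out each library in turn gave 4 to 13 of the 32 higher and 4 to 6 lower, 25 to 36 genes of the lists higher and 15 to 29 lower. Over all genes it gave 2111 to 3800 higher and 1585 to 3359 lower. Without library 3 labelled VEC-null 13 of the 32 were higher and 6 lower, and without library 1 labelled VEC-positive 4 and 4.

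The labels do not say whether the same number in the 2 groups pairs libraries. Deviations of same-numbered libraries from their group mean correlated at 0.08, -0.33 and -0.30, and no library labelled VEC-positive correlated best with its own number. Because deviations were taken within each small group, these correlations depend on each other and cannot exclude a pairing. A fit with the replicate number as a block gave 8 higher and 5 lower of the 32 (2400 and 1744 over all genes), losing *Pmvk*, *Lss*, *Cyp51* and *Insig1* and gaining *Abca1*.

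Log2 fold changes that turned sign were those of called genes under equal totals, *Cyp51* (-0.028), *Insig1* (-0.069), *Stard4* (-0.0018) and *Acly* (-0.0027), and those of uncalled genes. With equal totals these were -0.31 for *Hmgcs1*, -0.31 for *Idi1*, -0.19 for *Sc5d*, -0.24 for *Srebf2*, -0.27 for *Scd2*, -0.29 for *Gramd1a* and -0.25 for *Hadh*. With equal totals without mitochondrial genes the same 7 genes stood at -0.14, -0.14, -0.023, -0.077, -0.10, -0.13 and -0.086, in that order. Upper quartile scaling gave -0.061 for *Hmgcs1*, -0.061 for *Idi1*, -0.022 for *Scd2*, -0.047 for *Gramd1a* and -0.0077 for *Hadh*. TMM scaling gave -0.014 for *Hmgcs1* and -0.014 for *Idi1*. edgeR gave -0.015, -0.011 and -0.0077, and DESeq2 -0.012, -0.0076 and -0.0075, for *Hmgcs1*, *Idi1* and *Gramd1a*. With single libraries left out, ranges that crossed 0 were -0.083 to 0.025 for *Acat2*, -0.083 to 0.090 for *Hmgcs1*, -0.32 to 0.027 for *Mvk*, -0.12 to 0.041 for *Mvd*, -0.071 to 0.053 for *Idi1*, -0.71 to 0.054 for *Fdps*, -0.25 to 0.031 for *Nsdhl*, -0.026 to 0.18 for *Scd2* and -0.059 to 0.076 for *Gramd1a*. Apart from the shift of the median gene by the scaling, the cause was not tested.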

Other observations

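Reads of *Fdps* and of its near copies were summed as a check on its low count. The copies with a row in the table, Gm8163, Gm3571 and Gm5873, held 0 to 2.92 normalized counts in the libraries labelled VEC-positive and 0 to 6.12 in those labelled VEC-null. The sum of *Fdps* and these copies was 15.2, 21.4 and 17.8 in the libraries labelled VEC-positive, against 39.8, 31.5 and 9.75 in those labelled VEC-null, with overlap.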
